A study of Mus musculus with 18 samples.

Results

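GATA6 is a zinc-finger transcription factor that instructs the primitive endoderm (PrE), the extra-embryonic lineage set apart from the epiblast in the mouse blastocyst. A class of its binding regions in mouse embryonic stem (ES) cells is described here, those that GATA6 occupied early and kept, that SOX17 also occupied, and that were already bound by pluripotency transcription factors (PTFs, here OCT4, SOX2 or ESRRB) and already open before GATA6 was expressed. The regions, hereafter members, were chosen by 4 classes that the authors had assigned to each region of a deposited table from their own binding and accessibility data: the Early&Constant class of GATA6 binding, PTF binding at day 0 (d0), SOX17 binding, and moderate or full accessibility at d0. In total 1923 of 42403 regions met the rule, or 4.54% of the table and 16.2% of its 11875 Early&Constant regions. Of these members 1568 (81.5%) were moderately accessible and 355 (18.5%) accessible at d0. GATA6, SOX17 and PTF binding and accessibility therefore define the members and are not findings about them. The columns used hold classes without the signal values behind them, and 59 columns of per-assay signal were not used. Values just inside and just outside the class borders are therefore not given.

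The series itself consists of 18 MNase-seq libraries of KH2 ES cells of the genotype C57BL/6 x 129/Sv that carry a doxycycline-inducible gata6 expression cassette, with 3 libraries for untreated cells (d0) and 3 each after 8, 16, 24, 48 and 96 h of doxycycline (Dox). All groups share the transgene and were grown with LIF on mitomycin C-inactivated feeders, so GATA6 was expressed from a transgene in cells held in ES cell medium. The inducible cells descend from individually picked drug-resistant clones, and the labels do not say which clone each library comes from. No value of an MNase library stands in the columns used, so no library and no time point enters a comparison here. Nucleosome signal was not analysed here, and the depth behind each class is unknown. All comparisons are between regions, which are not replicates of a condition.

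As background, GATA factors recognise short motifs with a GATA core, and GATA6 acts together with FGF signalling to move inner cell mass cells towards PrE. SOX17 is an HMG-box factor induced during PrE formation whose motif carries an ATTGT core. OCT4 and SOX2 bind side by side on a composite motif at enhancers of pluripotency genes, and ESRRB is an orphan nuclear receptor of the same network that binds an AAGGTCA element. Enhancers of this network are open and carry active histone marks in ES cells held in LIF.

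The sequences that carry these motifs at the members were read from the GRCm38.p6 reference, the build of the mm10 coordinates in the table, and the table names for each region the best-scoring occurrence of each of 4 motifs. Motif scores are the log-odds match scores of the authors' search, whose lowest accepted values were 6.23 for GATA6, 7.18 for SOX17, 5.13 for OCT4:SOX2 and 5 for ESRRB. The members with the highest score for each motif are shown first, as examples of the strongest match among members, with the motif in capitals and 20 flanking bases on each side. The highest score was tied for GATA6 (7 members), SOX17 (49 members) and ESRRB (2 members), where the first by position is shown.
GATA6 motif near Zfp281, chr1:136570592-136570644, plus strand: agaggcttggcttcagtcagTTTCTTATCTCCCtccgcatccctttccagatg
SOX17 motif near Msc, chr1:14632289-14632337, plus strand: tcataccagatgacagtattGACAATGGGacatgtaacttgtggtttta
OCT4:SOX2 motif in Cbfa2t2, chr2:154532988-154533042, plus strand: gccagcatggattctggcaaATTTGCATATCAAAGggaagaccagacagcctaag
ESRRB motif near Cyp2s1, chr7:25817095-25817145, plus strand: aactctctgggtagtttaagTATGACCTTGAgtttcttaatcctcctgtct

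The first site scored 15.2 and lay 137 bp from the summit of an accessible region in promoter state. The region was 54420 bp from the nearest coding start, that of Zfp281, a zinc-finger factor of pluripotent cells. Its capitals read on the minus strand as a GATA motif, and the same region held an OCT4:SOX2 motif with a score of 16.2. The SOX17 site scored 12.8 and lay 198 bp from the summit of an intergenic region in naive state, 122550 bp from Msc, a basic helix-loop-helix gene. The OCT4:SOX2 site, with 20.5 the highest score of the members, lay in an intron of Cbfa2t2, a transcriptional co-repressor gene, 290 bp from the summit, whereas the best GATA6 motif of that region (9.7) was centred 1 bp from the summit. The ESRRB site scored 18.5 and lay in an accessible region whose summit was 36 bp from the start of Cyp2s1, a cytochrome P450 gene, and which held no SOX17 motif.

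Only 6 of the 1923 members had all 4 best motifs centred within 100 bp of the GATA6 summit. The 3 of them with the highest summed score are given as the full 200 bp window around the summit, with the 4 best motifs in capitals, to show how closely the motifs of GATA6, SOX17 and the PTFs can be packed.
Cnst intron, chr1:179568924-179569123, plus strand: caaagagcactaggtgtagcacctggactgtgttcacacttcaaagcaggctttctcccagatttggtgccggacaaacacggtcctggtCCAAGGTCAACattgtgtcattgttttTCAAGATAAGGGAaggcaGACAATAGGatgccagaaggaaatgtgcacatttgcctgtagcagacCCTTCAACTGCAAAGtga
Near Pdpn, chr4:143301987-143302186, plus strand: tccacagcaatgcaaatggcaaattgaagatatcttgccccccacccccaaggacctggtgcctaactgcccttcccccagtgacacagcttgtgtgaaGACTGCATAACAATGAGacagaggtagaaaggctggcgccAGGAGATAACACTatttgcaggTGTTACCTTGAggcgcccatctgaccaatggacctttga
Usp7 intron, chr16:8758220-8758419, plus strand: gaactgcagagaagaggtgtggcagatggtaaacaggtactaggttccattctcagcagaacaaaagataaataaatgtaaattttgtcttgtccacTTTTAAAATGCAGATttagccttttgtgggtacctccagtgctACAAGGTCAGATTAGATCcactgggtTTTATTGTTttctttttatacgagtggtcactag

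In the Cnst window (summed score 47.7) the ESRRB motif (15.6) lay on the summit, followed by the GATA6 motif (12.6) and the SOX17 motif (11.3), with the OCT4:SOX2 motif (8.2) 89.0 bp from the summit. The window near Pdpn (41.2) had its summit 2523 bp from the nearest coding start. Its SOX17 motif (10.2) and the OCT4:SOX2 motif (13.5) overlapped at the summit. A single stretch of capitals holds both. In the Usp7 window (40.8) the ESRRB motif (10.3) and the GATA6 motif (9.2) overlapped, 45.0 and 51.0 bp from the summit. The region near Pdpn and that in Usp7 were classed as unchanged after Oct4 knockdown, and that in Cnst as increased.

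The motif content of the members was then compared with 3 sets of regions that each differ from them in 1 criterion of the rule: 978 regions that were closed at d0 but otherwise alike, 219 regions without SOX17 but otherwise alike, and 1236 regions of the Transient class, from which GATA6 is later lost, that were otherwise alike. Shares are given with 95% Wilson intervals. Differences between shares are given as log2 odds ratios and differences between means in their own unit, each with a 95% interval. A difference is called here where the interval widened for all 90 comparisons of this kind (a level of 99.94%) excludes 0. The number of the 20 chromosomes on which the difference had the pooled direction is given beside it. Of the 90 comparisons 32 were called. These intervals cover counting among regions only, and neighbouring regions are not independent: 791 members (41.1%) had another member within 100 kb.

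GATA6 motifs were fewer and weaker at the members than at regions closed at d0. A GATA6 motif was found in 1806 members (93.9%, 92.8 to 94.9) against 97.8% of closed regions (log2 odds ratio -1.49, -2.16 to -0.83, called, 17 of 20 chromosomes), and the difference widened in the 200 bp summit window, where 71.0% of members and 89.3% of closed regions held one. The mean best GATA6 score was 10.5 ± 2.30 (SD, n = 1806) at members and 11.6 ± 2.24 (n = 956) at closed regions, a difference of -1.10 (-1.27 to -0.92, called, 20 of 20 chromosomes). Members held 3.08 ± 1.78 GATA6 motifs per kb (SD, n = 1923) and closed regions 4.08 ± 2.01, a difference of -1 (-1.14 to -0.85, called, 20 of 20 chromosomes). Of the best GATA6 motifs, 58.9% of those at members contained AGATAA or its complement, against 72.9% at closed regions and 59.6% over all regions of the table.

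Relative to Transient regions the direction was the opposite. Of Transient regions 80.3% held a GATA6 motif (log2 odds ratio of members 1.92, 1.59 to 2.26, called, 20 of 20 chromosomes), and 47.7% held one in the summit window against 71.0% of members. Their mean best score was 9.57 ± 2.30 (SD, n = 992), 0.93 below that of members (0.75 to 1.11, called, 20 of 20 chromosomes), and 44.9% of their best motifs contained AGATAA. Within bins of region width the difference in score was 0.33 and no longer called. Against regions without SOX17, 94.5% of which held a GATA6 motif with a mean score of 10.7, neither the share (-0.16, -1.04 to 0.72) nor the score (-0.19, -0.52 to 0.15) was called. The density of 3.61 motifs per kb at regions without SOX17 was above that of members (-0.53, -0.81 to -0.26, called, 14 of 20 chromosomes), but this call was lost on leaving out chromosome 3, 10, 15 or X, with values of -0.46 to -0.49. In the summit window the difference was larger, at -1.34, and not called.

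The SOX17 motif set the members apart from regions without SOX17. It was present in 1751 members (91.1%, 89.7 to 92.3) against 70.8% of regions without SOX17 (log2 odds ratio 2.07, 1.59 to 2.55, called, 16 of 20 chromosomes), and in 54.1% against 27.4% of the summit windows. Where present, the best SOX17 motif scored 10.2 ± 1.59 (SD, n = 1751) at members and 9.48 ± 1.47 (n = 155) at regions without SOX17, a difference of 0.76 (0.52 to 1.01, called, 17 of 20 chromosomes), which was 0.66 in the summit windows and 0.30 for the mean over all motifs of a region, neither called. Members held 2.38 SOX17 motifs per kb and regions without SOX17 1.54, a difference of 0.85 (0.64 to 1.06, called, 17 of 20 chromosomes). At members 55.2% of the best SOX17 motifs contained CATTGT, against 37.4% at regions without SOX17 and 47.0% over all regions. No difference from closed regions was called for SOX17 motifs, neither in share (0.16, -0.21 to 0.54) nor in score (0.02, -0.11 to 0.14).

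The PTF motifs set the members apart less. An OCT4:SOX2 motif was found in 92.8% of members (91.6 to 93.9), 92.9% of closed regions and 93.2% of regions without SOX17, and the mean best score was 9.90 ± 3.03 (SD, n = 1785), 9.58 ± 2.62 (n = 909) and 10.6 ± 3.20 (n = 204), with no called difference. Per kb, OCT4:SOX2 motifs were less dense at members (2.76) than at regions without SOX17 (3.42, difference -0.66, -0.98 to -0.35, called, 18 of 20 chromosomes), and in the summit window they were found in 49.4% against 64.8% (log2 odds ratio -0.92, called). An ESRRB motif was found in 59.5% of members (57.3 to 61.7), 60.2% of closed regions and 55.7% of regions without SOX17, with no called difference in share, score or density. Over all regions of the table the shares were 71.5% for OCT4:SOX2 and 36.3% for ESRRB.

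Against Transient regions the shares of the SOX17 motif (91.1% and 85.1%, log2 odds ratio 0.83, 0.51 to 1.15), the OCT4:SOX2 motif (92.8% and 83.8%, 1.32, 0.99 to 1.65) and the ESRRB motif (59.5% and 52.7%, 0.40, 0.19 to 0.61) were all called higher at members. Members were wider, however, with a mean of 1229 ± 601 bp (SD) against 840 ± 415 bp for Transient and 963 ± 406 bp for regions without SOX17, and width follows the GATA6 peaks themselves. In windows of equal width the direction turned. SOX17 motifs were in 54.1% of members and 56.9% of Transient regions (-0.16), and OCT4:SOX2 motifs in 49.4% and 52.8% (-0.19). ESRRB motifs were in 17.5% and 22.7% (-0.47), which was called lower at members. Within bins of region width the values were 0.31, 0.43 and -0.26, none of them a called excess of members, and the ESRRB call was also lost without chromosome 5 (0.37) or 8 (0.36). Per kb, members held fewer SOX17 motifs than Transient regions (2.38 and 2.66, difference -0.27, -0.41 to -0.13, called, 16 of 20 chromosomes). It turned to 0.10 in the summit windows and 0.07 within bins of width and was lost without chromosome 1, 7, 8 or 17 (-0.23 to -0.25). ESRRB motifs were fewer per kb as well (0.831 and 0.985, -0.15, -0.24 to -0.07, called, 17 of 20 chromosomes), a call lost within bins of width (-0.10) and without chromosome 3 (-0.14). The higher share of GATA6 motifs at members kept its direction and its call in the windows, and within bins of width its log2 odds ratio fell from 1.92 to 0.69.

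**Figure D1:**
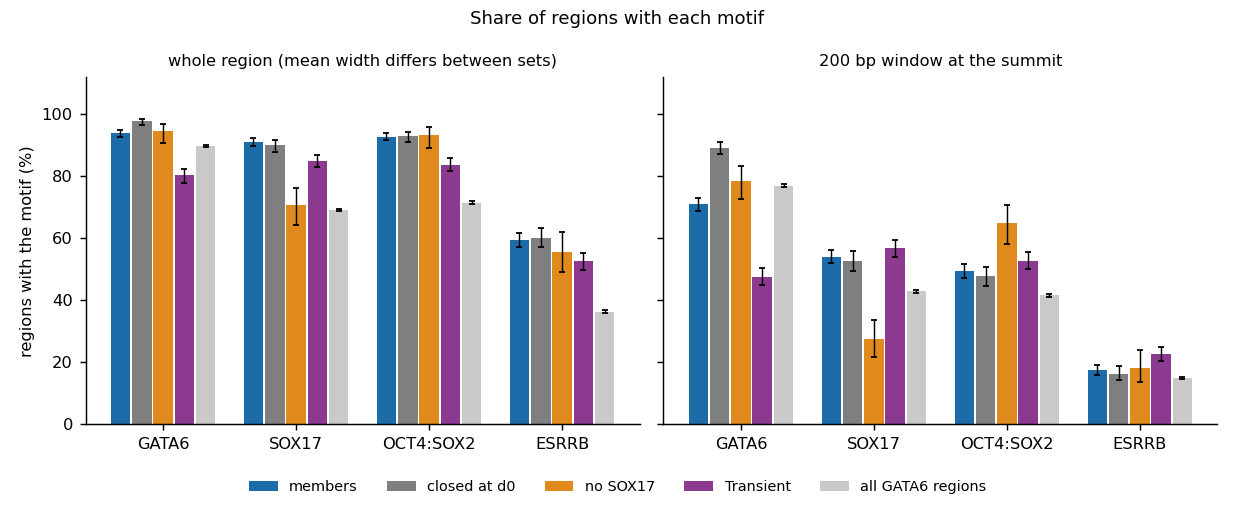
Share of regions with each motif, in percent, over the whole region (left) and in the 200 bp window at the GATA6 summit (right), for members (n = 1923), regions closed at d0 (978), regions without SOX17 (219), Transient regions (1236) and all 42403 regions. Bars are shares and lines 95% Wilson intervals. GATA6 motifs at members (71.0% of windows) lie between closed (89.3%) and Transient (47.7%) regions, and SOX17 motifs are least frequent where SOX17 was not bound (27.4%).

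In the summit windows 90 members (4.68%) held none of the 4 motifs, 519 (27.0%) held 1 kind, 818 (42.5%) held 2 kinds, 447 (23.2%) held 3 and 49 (2.55%) held all 4, against 5.92%, 33.4%, 40.8%, 18% and 1.88% of all regions. The most frequent combination at members was GATA6 with SOX17 and OCT4:SOX2 (309 members, 16.1%), followed by GATA6 with SOX17 (289, 15.0%) and GATA6 alone (277, 14.4%). Over all regions GATA6 alone led with 23.3%, and the combination of the 3 motifs made up 12.0%. A further 133 members (6.92%) held only a SOX17 motif and 97 (5.04%) only an OCT4:SOX2 motif in the window, so that a GATA6 motif was not found next to the GATA6 summit there. These counts are descriptions and were not tested.

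The best GATA6, SOX17 and OCT4:SOX2 motifs of members lay closer to the GATA6 summit than an even placement over the region would put them, whereas the interval for the ESRRB motif (7.88% to 11.3% within 50 bp) holds the value for even placement. The best GATA6 motif was centred within 50 bp of the summit at 623 of 1806 members (34.5%, 32.3 to 36.7), where even placement gives 9.71%, and its median distance was 114 bp. The corresponding share was 43.9% at closed regions (log2 odds ratio -0.57, -0.80 to -0.34, called, 17 of 20 chromosomes) and 26.4% at Transient regions (0.55, 0.31 to 0.80, called, 17 of 20 chromosomes). With 25 bp in place of 50 bp the difference from closed regions was -0.34 and not called. The best SOX17 motif lay within 50 bp at 22.2% of members, the best OCT4:SOX2 motif at 20.0% and the best ESRRB motif at 9.44%, where even placement gives 9.88%, 9.82% and 8.84%. Over all regions these shares were 29.0%, 26.7% and 18.4%, where even placement gives 19.1%, 18.9% and 17.3%. At Transient regions the OCT4:SOX2 motif was within 50 bp more often (33.2%) than the GATA6 motif (26.4%), the reverse of the order at members (20.0% and 34.5%).

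**Figure D2:**
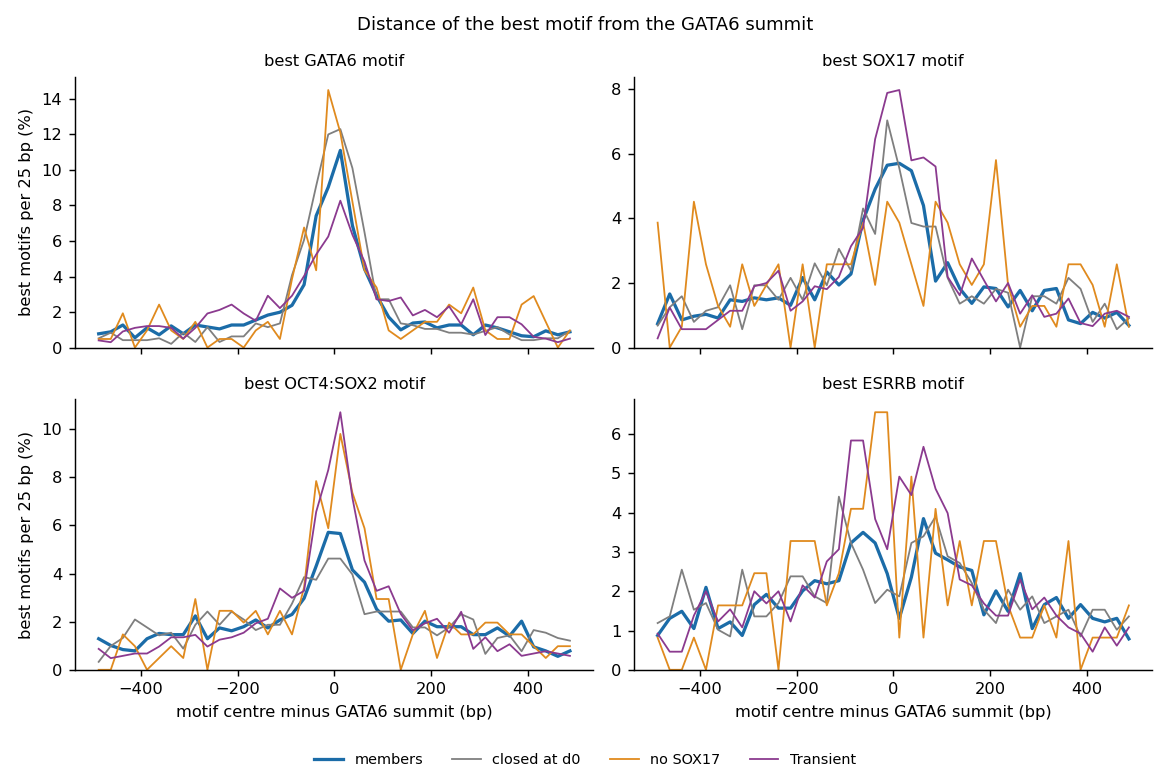
Distance of the centre of the best motif from the GATA6 summit (bp, 25 bp bins, out to 500 bp on each side) as a percentage of the regions that hold the motif, for members and the 3 comparison sets, with 1 panel for each motif and a linear axis of its own per panel. At members the GATA6 motif peaks at the summit (34.5% within 50 bp), SOX17 and OCT4:SOX2 motifs peak less (22.2% and 20.0%), and the ESRRB motif (9.44%) is less frequent on the summit than beside it.

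The best motifs of different factors seldom shared bases at members, and only the best motif of each kind was compared. Among 1639 members with both motifs, the best SOX17 motif overlapped the best OCT4:SOX2 motif at 85 (5.19%, 4.21 to 6.37), against 4.01% at closed regions, 4.73% at regions without SOX17 and 7.88% at Transient regions, with no called difference. Of these 85 overlaps 65 (76.5%) had the same geometry, with the SOX17 motif on the same strand and starting 2 bases before the OCT4:SOX2 motif, which puts its ATTGT core on the SOX2 side of the composite motif. At members with this overlap the best OCT4:SOX2 score was 11.2 ± 2.87 (SD, n = 85) against 9.91 ± 3.01 (n = 1554) at members where the motifs were apart, and 15 (17.6%) against 264 (17.0%) were decreased after Oct4 knockdown. The best GATA6 motif overlapped the best OCT4:SOX2 motif at 2.50% and the best SOX17 motif at 1.33% of the members that held both, and the median gap was 271 bp for either pair. Over all regions these shares were 4.61% and 2.64%, and the SOX17 motif overlapped the OCT4:SOX2 motif at 7.25%.

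Next, the response of GATA6 binding to loss of OCT4 was described. The deposited class compares GATA6 binding at 48 h of Dox in cells given an Oct4 siRNA with cells given a control siRNA, in other libraries than those that define the members, and the authors quantified all GATA6 regions for it. GATA6 binding decreased at 316 members (16.4%, 14.8 to 18.2), where 6.25% of all regions were called decreased, and increased at 122 members (6.34%, 5.34 to 7.52), where 8.57% of all regions were called increased. The share of decreased regions was lower than among closed regions (22.6%, log2 odds ratio -0.57, -0.85 to -0.29, called, 15 of 20 chromosomes) and was not called different from regions without SOX17 (18.3%, -0.18, -0.71 to 0.34) or Transient regions (19.7%, -0.32, -0.59 to -0.06), although within bins of region width the difference from Transient regions was -0.71 and called. The share of increased regions was higher than among Transient regions (11 of 1236, 0.890%, log2 odds ratio 2.92, 2.02 to 3.81, called, 18 of 20 chromosomes), while the differences from closed regions (3.48%) and regions without SOX17 (1.37%) were not called. The read counts behind each class are not in the columns used, so unequal power between the sets was not tested.

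Among members, the share that decreased moved with the strength of the OCT4:SOX2 motif. It was 8.70% (12 of 138) without such a motif, 11.7% (38 of 324) with a best score under 7, 14.1% (100 of 709) from 7 to 10, 20.7% (91 of 439) from 10 to 13 and 24.0% (75 of 313) over 13. The share that increased ran the other way, from 8.70% without the motif to 3.83% over 13. Decreased members had a mean best OCT4:SOX2 score of 10.7 ± 3.17 (SD, n = 304), unchanged members 9.77 ± 3 (n = 1371) and increased members 9.25 ± 2.70 (n = 110). In the summit windows, OCT4:SOX2 motifs were in 58.2% of decreased, 47.9% of unchanged and 45.1% of increased members, and SOX17 motifs in 47.8%, 54.2% and 69.7%. ESRRB motifs were in 24.4%, 16.2% and 14.8% of these windows and GATA6 motifs in 65.5%, 72.2% and 70.5%. These splits are descriptions with no test. Median width moved with them, at 1188 bp for decreased, 1079 bp for unchanged and 968 bp for increased members, and its part in the shares was not tested.

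**Figure D3:**
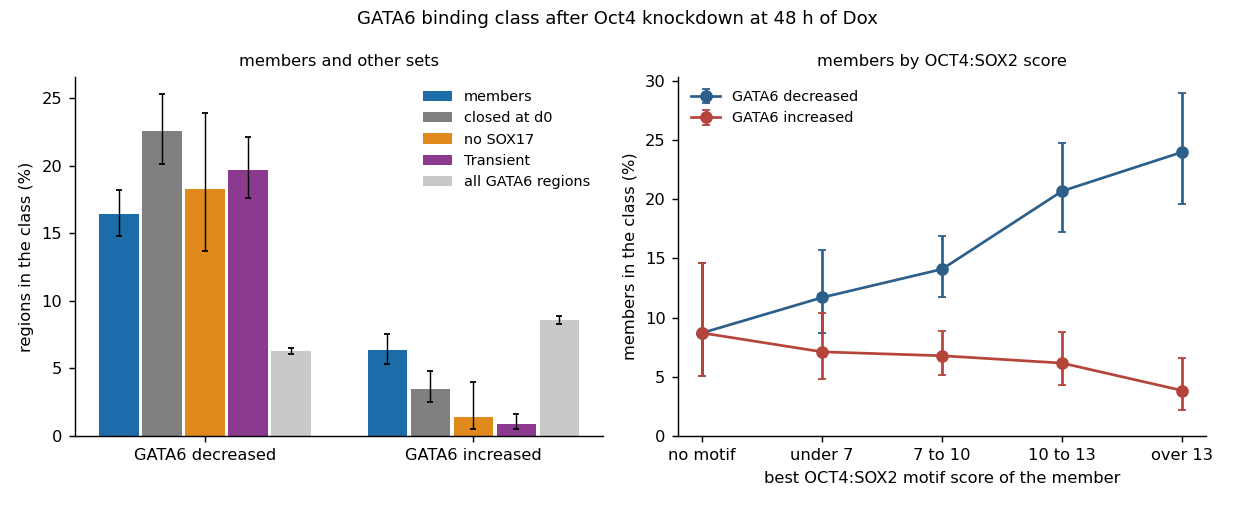
Share of regions whose GATA6 binding decreased or increased after Oct4 knockdown at 48 h of Dox, in percent. Left, members, the 3 comparison sets and all regions (bars). Right, members split by the score of their best OCT4:SOX2 motif (points). Lines are 95% Wilson intervals. Decreased regions make up 16.4% of members and 6.25% of all regions, and within members rise from 8.70% without the motif to 24.0% at scores over 13.

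The strongest OCT4:SOX2 motifs of members that decreased and of members that increased are set side by side, with the motif in capitals and 20 flanking bases, to show what the match scores mean in letters. The increased member with the strongest motif is the Cbfa2t2 region already shown.
Decreased, near Dll1, chr17:15380808-15380862, plus strand: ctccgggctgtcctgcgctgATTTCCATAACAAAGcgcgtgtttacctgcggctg
Decreased, upstream of Lefty1, chr1:180933849-180933903, plus strand: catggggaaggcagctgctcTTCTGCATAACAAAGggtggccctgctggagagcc
Decreased, near Zfp14, chr7:30031573-30031627, plus strand: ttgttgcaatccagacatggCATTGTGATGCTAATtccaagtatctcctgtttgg
Increased, near Gnas, chr2:174261466-174261520, plus strand: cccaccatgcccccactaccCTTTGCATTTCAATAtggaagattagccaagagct
Increased, Stag1 intron, chr9:100640952-100641006, plus strand: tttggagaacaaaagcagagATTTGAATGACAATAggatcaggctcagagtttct

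The region near Dll1, a Notch ligand, was accessible, in poised enhancer state and 3964 bp from the gene's start, and its motif (18.6) was centred 1 bp from the GATA6 summit. The Lefty1 region (18.5), 1075 bp upstream of the start of a Nodal inhibitor gene, was in promoter state and held 6 OCT4:SOX2 motifs and no ESRRB motif. The motif near Zfp14 (18.1), 32.0 bp from the summit, overlapped the best SOX17 motif (10.5) in the geometry described above. Among the increased members, the motif near Gnas, a G-protein subunit gene, scored 15.5 and lay 67.0 bp from the summit, and those in Cbfa2t2 (20.5) and Stag1 (15.4), a cohesin subunit gene, lay 290 and 1276 bp away. In the 3 decreased members the strongest OCT4:SOX2 motif was therefore 1 to 71.0 bp from the summit, and in the 3 increased members 67.0 to 1276 bp. These ranges overlap and come from members picked by score. The distance was not compared over all members of each class.

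The chromatin state of the regions in unmodified ES cells, which the authors derived by clustering public histone data, was mostly that of an enhancer. Of members 826 (43.0%, 40.8 to 45.2) were in active enhancer, 498 (25.9%) in primed enhancer, 235 (12.2%) in promoter and 204 (10.6%) in poised enhancer state, whereas 110 (5.72%) were in constitutive and 16 (0.832%) in facultative heterochromatin and 34 (1.77%) were naive. Over all regions active enhancer made up 11.2%, facultative heterochromatin 22.3% and naive 18%. Promoter state was less frequent at members than at Transient regions (16.8%, log2 odds ratio -0.54, -0.83 to -0.25, called, 14 of 20 chromosomes), a call that was lost on leaving out any 1 of 9 chromosomes, with -0.48 without chromosome 9 as the smallest difference. No other state was called different from Transient regions or from regions without SOX17, where active enhancer made up 31.1% (0.74, 0.31 to 1.17). Histone state and accessibility are not independent measures, so members were not compared with closed regions on this measure. For the same reason the shares over all regions, many of them not open at d0, are a reference only.

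**Figure D4:**
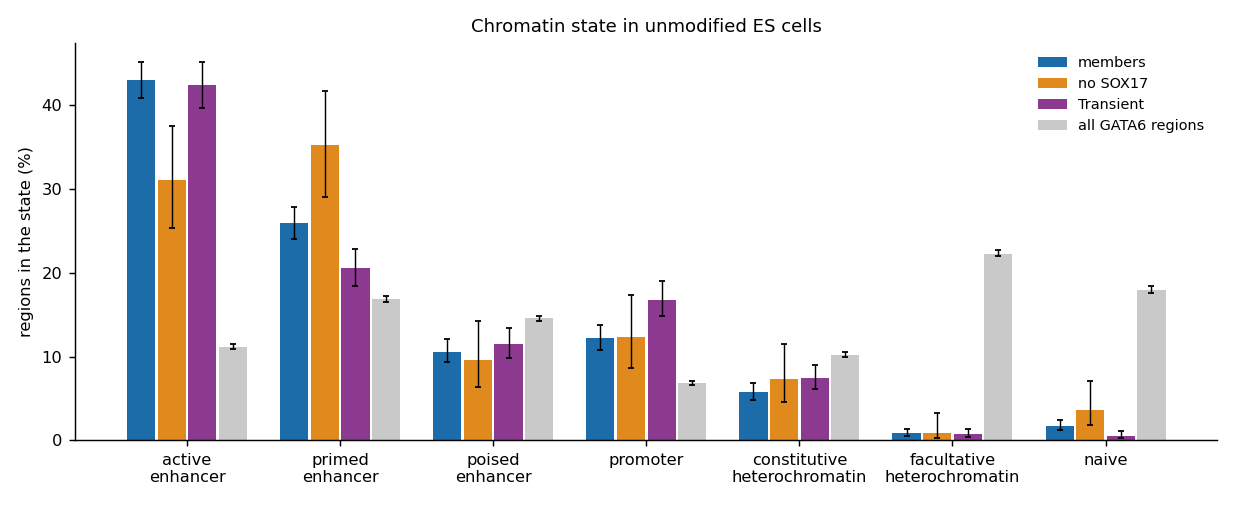
Share of regions in each of 7 chromatin states of unmodified ES cells, in percent, for members, regions without SOX17, Transient regions and all regions, with 95% Wilson intervals. Active enhancer is the most frequent state of members (43.0%) and of Transient regions (42.4%), against 11.2% of all regions. Unlike all regions, both sets were chosen as open at d0, and state is not independent of accessibility.

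Members of different states differed in their motifs. Poised enhancer members (n = 204) held a GATA6 motif in 84.3% of summit windows, while active enhancer, primed enhancer and promoter members held one in 70.8%, 68.3% and 68.1%. Among the 5 states with 110 members or more, SOX17 motifs in the window ranged from 42.6% of promoter members to 67.3% of constitutive heterochromatin members, and OCT4:SOX2 motifs from 38.7% to 61.8% in the same states. Over the whole region an ESRRB motif was in 64.9% of active enhancer and 51.5% of poised enhancer members. Decreased GATA6 binding after Oct4 knockdown was least frequent in promoter members (20 of 235, 8.51%, 5.58 to 12.8), and was 16.0% in active, 18.3% in primed and 17.6% in poised enhancer members. These splits were not tested, and median width ranged from 785 bp in constitutive heterochromatin to 1198 bp in active enhancer members.

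The 355 accessible members differed from the 1568 moderate ones in GATA6 motifs, promoter summits, GC content and width. Of accessible members 87.6% (83.8 to 90.6) held a GATA6 motif against 95.3% of moderate members (log2 odds ratio -1.53, -2.10 to -0.97, called, 17 of 20 chromosomes). The mean best score was 9.78 against 10.7 (difference -0.88, -1.16 to -0.60, called, 18 of 20 chromosomes), and the density 2.30 against 3.26 motifs per kb (-0.96, -1.13 to -0.78, called, 20 of 20 chromosomes). For the mean score over all GATA6 motifs of a region the difference was -0.26 and not called. None of the SOX17, OCT4:SOX2 or ESRRB differences between accessible and moderate members was called, although OCT4:SOX2 motifs per kb (2.47 against 2.83, -0.35) were called within bins of width (-0.40) and on leaving out any 1 of 6 chromosomes (to -0.39). Also not called were the shares that decreased (15.8% and 16.6%, -0.09, -0.54 to 0.37) or increased (4.51% and 6.76%, -0.62, -1.40 to 0.16) after Oct4 knockdown. Accessible members were narrower, with a mean width of 1117 against 1254 bp (difference -137, -198 to -75.9, called, 16 of 20 chromosomes). Promoter state made up 38.0% of accessible and 6.38% of moderate members, and primed enhancer state 3.38% and 31.0%, which were not compared by a test. Promoter summits were more frequent among accessible members (24.8% against 11.5%, 1.34, 0.92 to 1.75, called, 19 of 20 chromosomes), and their windows were richer in GC (49.0% against 45.9%, difference 3.11, 2.45 to 3.77, called, 20 of 20 chromosomes). GATA6 motifs were thus fewer in the accessible members, whose GC content was higher. Across histone states of members this order did not hold. Poised enhancer and promoter members had 48.1% and 49.4% GC and GATA6 motifs in 84.3% and 68.1% of windows. Active enhancer, primed enhancer and constitutive heterochromatin members had 46.9%, 44.5% and 43.7% GC and GATA6 motifs in 70.8%, 68.3% and 68.2%. The part of base composition in the motif counts was not tested.

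In the genome, 935 member summits (48.6%) lay in introns, 905 (47.1%) between genes and 83 (4.32%) in exons of GENCODE M21 transcripts. Summits within 1 kb of a transcript start made up 14.0% of members (12.5 to 15.6), against 5.01% of closed regions (log2 odds ratio 1.62, 1.17 to 2.08, called, 19 of 20 chromosomes), 16.0% of regions without SOX17 and 15.9% of Transient regions (neither called). The median distance to the start of a coding gene was 13371 bp at members, 23961 bp at closed regions and 17518 bp at Transient regions. Mean GC content of the summit windows was 46.4% ± 5.38 (SD) at members, above closed regions (43.2%, difference 3.21, 2.82 to 3.60) and below Transient regions (48.3%, -1.92, -2.34 to -1.50), both called on 20 of 20 chromosomes. Across closed regions, members and Transient regions, GATA6 motifs were thus fewer where GC content was higher, an order that did not hold across the histone states of members. The part of base composition in the motif differences between these sets was not tested. Members were spread over all chromosomes, from 3.81% of the regions of chromosome 15 to 5.41% of those of chromosome 10, with a median of 185450 bp from a member to the nearest other one.

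Members lay near many genes of the pluripotency network and of the signalling that acts on it. The rule asks for PTF binding at d0 in open ES cell chromatin, so nearness to these genes is not independent of the rule. Of 38 listed pluripotency genes 29 (76.3%, 60.8 to 87.0) had a member within 100 kb of a transcript start, and of 28 genes of FGF, LIF and Nodal signalling 18 (64.3%, 45.8 to 79.3), where 4266 of 21728 protein-coding genes (19.6%) had one. Of 34 PrE genes 12 (35.3%, 21.5 to 52.1) had one, and of 7 trophoblast, 5 mesoderm and 5 neural genes 2, 0 and 0. For closed regions the order of the 2 main lists was turned, with 18 of 34 PrE genes (52.9%) and 7 of 38 pluripotency genes (18.4%) against 8.69% of coding genes, and for Transient regions the counts were 6 of 34 and 21 of 38 against 13.7%. Of the 28 signalling genes 13 (46.4%) had a Transient region and 3 (10.7%) a closed one. A region without SOX17 lay near 4 (14.3%) of them, against 2.95% of coding genes. Of the 38 pluripotency genes 55.3% had a Transient region, against 13.7% of coding genes. Nearness to pluripotency or signalling genes was thus not particular to members. All GATA6 regions together reached each gene of the pluripotency, PrE and signalling lists and 89.1% of coding genes, so the list counts describe which class lies near which genes. The lists were chosen with results of these data known, and gene length, gene density and expression were not matched.

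**Figure D5:**
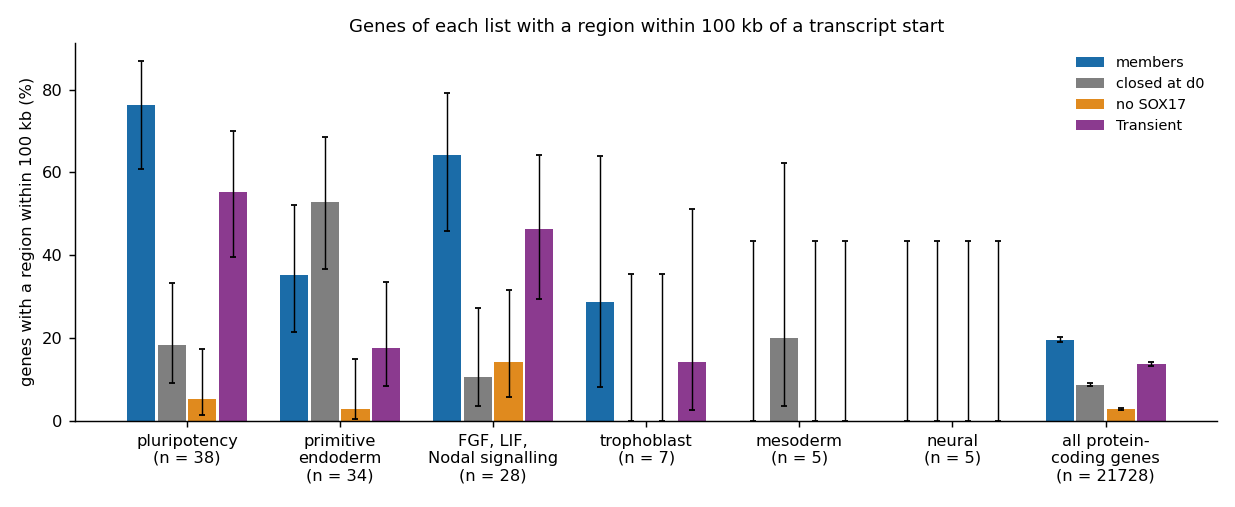
Share of the genes of each list with a region of each set within 100 kb of a transcript start, in percent, with 95% Wilson intervals. The sets differ in size (1923, 978, 219 and 1236 regions), so each is to be read against its own bar for all protein-coding genes. Members, chosen for PTF binding at d0, reach 76.3% of pluripotency genes against 19.6% of coding genes. Transient regions, chosen for it as well, reach 55.3% against 13.7%, and closed regions 52.9% of PrE genes against 8.69%.

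The 30 list genes with the closest members are described one by one by list, and these 30 members were distinct. Of them 8 were accessible and 22 moderate, 14 were in active enhancer and 12 in promoter state, and 4 decreased and 4 increased after Oct4 knockdown. Among all members 43.0% were in active enhancer and 12.2% in promoter state, and the 30 were picked for closeness to a transcript start. Decreased binding made up 16.4% of all members and 6.25% of all regions, and increased binding 6.34% and 8.57%. The few members in each class allow no statement about these genes as a set. Among the pluripotency genes, the member closest to a start was in an intron of Otx2, 182 bp upstream of a start of this gene, which encodes a homeobox factor of the exit from naive pluripotency, in poised enhancer state, and held a SOX17 motif of 9.8 centred 15.0 bp from the summit. A member 603 bp downstream of the start of Lin28a, an RNA-binding protein gene, held a GATA6 motif of 12.3 and no SOX17 motif, and 1 lay 756 bp upstream of a start of Jarid2, a subunit gene of Polycomb complex PRC2. In an intron of Dnmt3l, which encodes a cofactor of DNA methyltransferases, a member 1466 bp upstream of a start held no GATA6 motif. It held an OCT4:SOX2 motif of 17.0 at 15.0 bp from the summit, and GATA6 binding there decreased after Oct4 knockdown. Binding also decreased at the member 4253 bp upstream of Nr0b1, which encodes the nuclear receptor DAX1, and at that 1075 bp upstream of Lefty1, and it increased 1464 bp upstream of Sall4. It also increased at a member in an intron of Trim28, 7408 bp upstream of a start of that gene and nearer to a start of Zbtb45.

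At Pou5f1, which encodes OCT4, the closest member was 3107 bp upstream of a start, in active enhancer state. It held a GATA6 motif of 11.5 at 9 bp and an OCT4:SOX2 motif of 8.7 at 35.0 bp from the summit, and its class after Oct4 knockdown was unchanged. The member 2108 bp downstream of the start of L1td1, an RNA-binding protein gene, held a GATA6 motif of 14.4 at 42.0 bp, and that 2646 bp downstream of the start of Tet1, a 5-methylcytosine dioxygenase gene, a GATA6 motif of 12.8 at 25 bp. Other pluripotency genes among the 30 were Fbxo15 (257 bp), Mycn (1766 bp), Dppa5a (2085 bp) and Lefty2 (8630 bp). Over all list genes the largest number of members within 100 kb was 5, at Nanog, while Jarid2, Mycn, Lamc1 and Tbx3 had 4 each.

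Among the signalling genes, members lay 118 bp upstream of Dusp6, a phosphatase that restrains ERK, and 671 bp upstream of Il6st, the gp130 chain of the LIF receptor, both accessible and in promoter state. The Dusp6 region was only 438 bp wide and held no GATA6 motif, a SOX17 motif of 9.4 and an OCT4:SOX2 motif of 8.3, whereas the GATA6 motif was found 10 times at Il6st, scoring up to 13.2. Inhibitors of Ras and ERK signalling had members 1592 bp upstream of Spred1, 2024 bp downstream of a start of Spred2, in an intron of the gene, and 4089 bp upstream of Spry2, the last with decreased GATA6 binding after Oct4 knockdown. Members lay 1354 bp upstream of Lifr, the LIF receptor, and 4743 bp upstream of Socs3, its feedback inhibitor, where binding increased, and 2605 bp upstream of Fgf8, where it increased as well. Smad3, Id3 and Etv5, which encode effectors and targets of Nodal, BMP and FGF signalling, had members at 1249, 1956 and 2595 bp. Of the PrE genes only 4 were among the 30. They were Serpinh1 (787 bp), a collagen chaperone gene, Lama1 (1310 bp), Hspg2 (1654 bp) and Rhox5 (2527 bp), a homeobox gene. Lama1 and Hspg2 encode the basement membrane proteins laminin alpha 1 and perlecan. All 4 were classed as unchanged after Oct4 knockdown, as were 1485 of all 1923 members.

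The summit windows of 3 of these members are printed as an unchanged, a decreased and an increased example, chosen after their values were seen. Capitals mark the best rescanned occurrence of each motif in the window, which need not be the best of the whole region.
Upstream of Pou5f1, unchanged, chr17:35502811-35503010, plus strand: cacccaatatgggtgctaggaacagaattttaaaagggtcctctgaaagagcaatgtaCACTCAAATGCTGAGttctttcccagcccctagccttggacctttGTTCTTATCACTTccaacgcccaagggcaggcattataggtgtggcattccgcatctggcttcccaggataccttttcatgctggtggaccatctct
Upstream of Nr0b1, decreased, chrX:86187411-86187610, plus strand: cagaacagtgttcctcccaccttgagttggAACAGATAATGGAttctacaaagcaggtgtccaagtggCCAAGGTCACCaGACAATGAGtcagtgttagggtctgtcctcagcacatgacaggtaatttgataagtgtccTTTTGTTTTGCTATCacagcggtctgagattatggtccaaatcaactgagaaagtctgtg
Upstream of Socs3, increased, chr11:117974690-117974889, plus strand: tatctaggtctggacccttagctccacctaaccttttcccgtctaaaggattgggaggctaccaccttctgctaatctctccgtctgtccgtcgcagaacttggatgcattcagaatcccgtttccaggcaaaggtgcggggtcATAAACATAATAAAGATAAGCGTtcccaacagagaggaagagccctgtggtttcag

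The Pou5f1 window holds an OCT4:SOX2 and a GATA6 motif, the Nr0b1 window all 4 motifs, with the ESRRB and SOX17 motifs separated by 1 base, and the Socs3 window a GATA6 and an OCT4:SOX2 motif in overlap. The SOX17 motif of the Nr0b1 region scored 12.8, the highest score among members, and lay 16.0 bp from the GATA6 summit, and its ESRRB motif (14.6) lay 27.0 bp from it. The best GATA6 motif of the Nr0b1 region (9.8) lay 706 bp away, outside the window.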

How the data were processed

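Per the labels, 18 MNase-seq libraries were made from 6 groups of 3, with reads handled by bcl2fastq, cutadapt, Bowtie2 (mm10) and SAMtools. The values used come from a table of GATA6 binding regions that the authors made from ChIP-seq, ATAC-seq and public histone data. GATA6 peaks had been called with MACS2 against inputs on merged replicates and kept where every replicate had the peak. GATA6 classes came from k-means clustering of input-normalised log2 signal, SOX17 and PTF classes from peak calls, and histone states from clustering of ENCODE data, and the siOct4 class came from DESeq2 as run by the authors. The deposited motif values are FIMO log-odds match scores for JASPAR matrices, with the position of the best match and the number of matches per region. Of the 105 columns, 59 of per-assay signal could not be matched to a sample and were not used, and 12 of motif groups were not used.

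Shares, means and differences were computed with Python 3.11.15, numpy 2.4.6, pandas 2.3.3 and scipy 1.17.1, with Wilson intervals for shares, Woolf intervals for log2 odds ratios and normal intervals for differences of means. Sequences were read with pysam 0.24.0 from GRCm38.p6, and gene positions are those of GENCODE M21. Motif matrices were recovered from the deposited scores and used to rescan the 200 bp summit windows, and over whole regions this rescan gave the same presence or absence for 99.2% to 99.8% of regions. The estimators were tested on simulated data. The regions and gene lists were chosen with earlier results of these data known. Members described by name are those with the highest score per motif, the 3 with the highest summed score among those with all 4 best motifs within 100 bp of the summit, the 3 decreased and 3 increased ones with the strongest OCT4:SOX2 motif, and the members closest to 30 list genes. Alternatives were the rescanned windows, the mean score over all motifs, 10 bins of region width, other distances and leaving out each chromosome. Depth behind the classes is unknown, since no counts are in the columns used, and intervals cover counting among regions only.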

Additional observations from a re-analysis of the deposited data

How the results depend on the processing

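The 90 comparisons were recomputed under 354 alternatives, of which 289 kept direction and call, 40 turned the direction, 14 lost a call and 11 gained one. The cause was not tested. Differences are log2 odds ratios for shares and differences of means otherwise, members minus the other set. No paired analysis was possible because no library value stands in the columns used.

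In the rescanned 200 bp windows the shares of SOX17 (-0.16), OCT4:SOX2 (-0.19) and ESRRB motifs (-0.47, called) against Transient regions turned. OCT4:SOX2 (0.10) and ESRRB (0.11) against closed regions and ESRRB against regions without SOX17 (-0.08) turned as well. OCT4:SOX2 against regions without SOX17 was called (-0.92). Of the scores there, SOX17 against regions without SOX17 lost its call (0.66), OCT4:SOX2 against closed regions gained one (0.63) and OCT4:SOX2 against Transient turned (-0.50). Per kb, GATA6 against regions without SOX17 lost its call (-1.34), and SOX17 against closed (0.02) and Transient regions (0.10) and OCT4:SOX2 against closed regions (0.12) turned.

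Within bins of width the SOX17 (0.31) and OCT4:SOX2 shares (0.43), the GATA6 score (0.33) and ESRRB per kb (-0.10) against Transient lost their calls. The ESRRB share (-0.26), OCT4:SOX2 score (-0.31), SOX17 per kb (0.07), active enhancer (-0.29), poised enhancer (0.04) and constitutive heterochromatin (0.49) against Transient turned, as did OCT4:SOX2 against closed regions (0.06), ESRRB (-0.18) and facultative heterochromatin (0.39) against regions without SOX17 and ESRRB between accessible and moderate members (0.08). Calls were gained for primed enhancer (0.58) and decreased binding (-0.71) against Transient and for OCT4:SOX2 per kb between accessible and moderate members (-0.40).

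With the mean score over all motifs, the GATA6 difference between accessible and moderate members (-0.26) and the SOX17 difference from regions without SOX17 (0.30) lost their calls, OCT4:SOX2 against the latter was called (-0.52), and SOX17 (-0.04) and OCT4:SOX2 (-0.31) against Transient turned. Within 25 bp the GATA6 position against closed regions lost its call (-0.34), with promoters taken as 2 kb the Transient difference turned (0.01), and with the SOX17 motif wholly inside the OCT4:SOX2 motif the difference from regions without SOX17 was -0.00.

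Leaving out each chromosome changed the direction or the call of some comparisons. For GATA6 motifs against regions without SOX17 the range was -0.38 to 0.03 for the share and -0.60 to -0.46 per kb. Against closed regions it was -0.16 to 0.09 for the OCT4:SOX2 share, -0.12 to 0.03 for the ESRRB share, -0.02 to 0.05 for the SOX17 score, -0.14 to 0.00 for SOX17 and -0.01 to 0.02 for ESRRB per kb, and 0.81 to 1.11 for increased binding. Against regions without SOX17 it was -0.36 to 0.08 for the OCT4:SOX2 share, -0.01 to 0.54 for motif overlap, 0.66 to 0.85 for active enhancer, -0.17 to 0.14 for promoter and -0.37 to 0.89 for facultative heterochromatin state. Against Transient it was 0.36 to 0.44 for the ESRRB share, 0.17 to 0.23 for the SOX17, -0.04 to 0.09 for the OCT4:SOX2 and -0.14 to 0.07 for the ESRRB score, -0.31 to -0.23 for SOX17 and -0.17 to -0.14 for ESRRB per kb, and -0.03 to 0.07 for active enhancer, 0.37 to 0.50 for primed enhancer, -0.63 to -0.48 for promoter and -0.11 to 0.60 for facultative heterochromatin state. Between accessible and moderate members it was -0.06 to 0.14 for the OCT4:SOX2 score, -0.39 to -0.33 for OCT4:SOX2 per kb and -0.26 to 0.05 for decreased binding.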

Other observations

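A description of repeats was added after the data had been seen. Soft-masked bases, which the reference marks as repeats, made up 20.5% of the summit windows of members on average, against 18.9% at closed regions, 26.2% at Transient regions and 17.8% over all regions. The best OCT4:SOX2 motif was wholly soft-masked at 301 of 1785 members (16.9%) and at 15.2% of all regions with the motif. The most frequent best OCT4:SOX2 sequence of members occurred at 17 members on 8 chromosomes and at 82 regions of the table, soft-masked at each of them. The most frequent best SOX17 sequence, TCCATTGTC, occurred at 54 members (3.08%) and 1.76% of all regions with the motif. These values were not tested.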
